A study of Mus musculus with 3 samples.

Results

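Carbonic anhydrases are zinc enzymes that interconvert carbon dioxide and bicarbonate with a proton, and the family divides by where each enzyme sits. Car2, Car3 and Car13 are cytosolic, Car5b is mitochondrial, Car4 is held at the cell surface by a lipid anchor, and Car9 and Car12 span the membrane with the catalytic domain outside the cell. Car8 and Car11 are related proteins without the enzyme activity. In cartilage, which has no blood supply, cells ferment glucose and must export acid, and Car9 is known as a gene that low oxygen induces.

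The 9 genes described here (Car2, Car3, Car4, Car5b, Car8, Car9, Car11, Car12 and Car13) are rows of a table of 44788 gene symbols. The table holds 16 carbonic anhydrase symbols. The 9 were chosen from them with earlier results of these counts known, among them a lower count of Car3 in cKO. The list holds Car4, which had no count, and leaves out Car6, which had 350 counts in all. The difference in Car3 is therefore given as a description, and no p-value is printed for it. Counts were found for 8 of the 9, and 6 passed the filter on low counts.

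RNA was sequenced from primary chondrocytes of knee joint cartilage from C57BL/6 mice. The cKO cells (2 libraries) carried Col2a1-CreERT2 and floxed Kdm6b alleles (genotype Col2a1-CreERT2;Kdm6bf/f), and the control cells (1 library) carried the floxed alleles alone (Kdm6bf/f). CreERT2 is a recombinase that 4-hydroxytamoxifen activates, the Col2a1 promoter directs it to chondrocytes, and Kdm6b encodes a histone H3 demethylase. Cells of both genotypes had 10% fetal bovine serum and received 1 µM 4-hydroxytamoxifen for 48 h, so the control differs in carrying no recombinase. The labels give no age and do not say whether the libraries came from separate animals or cultures, and every p-value rests on the spread of the cKO libraries alone.

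The libraries held 12577419 and 12636471 counts in cKO, against 12489738 in the control. All 9 chondrocyte markers looked for had counts in each library, and their summed level was 15229 and 14282 CPM (counts scaled to library size) in cKO, against 25671 CPM in the control. Most of that sum was Col2a1, with 12510 and 11970 CPM in cKO, against 20090 CPM in the control. Kdm6b had 84.1 and 74.0 CPM in cKO, against 103.8 CPM in the control (log2 fold change -0.39 ± 0.14 SE, edgeR adjusted p = 0.138), and gene-level counts include exons outside the floxed part, so it checks the labels only weakly. The cKO libraries also differed from each other in Xist, the RNA of the inactive X chromosome, with 2 counts in cKO replicate 1 and 10081 in cKO replicate 2, against 1 in the control, so the cKO libraries are not repeats of 1 RNA sample. At a mean of at least 5 CPM there were 11338 genes. Their log2 differences had an SD of 0.569 and 0.562 for cKO replicates 1 and 2 minus the control, and 0.331 for cKO replicate 1 minus cKO replicate 2.

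The RefSeq promoter table (GRCm38.p6) matched 5 of the 9 genes, Car4, Car5b, Car9, Car11 and Car12, and it also held Car6. The 250 bases before the RefSeq start site are shown for Car9, the most abundant member, and for Car6, the family gene outside the list that was lower in cKO. They lie at chr4:43506776-43507025 on the plus strand and at chr4:150201136-150201385 on the minus strand. Capitals mark the core of the hypoxia response element, searched as ACGTG and as GCGTG on both strands.
Car9: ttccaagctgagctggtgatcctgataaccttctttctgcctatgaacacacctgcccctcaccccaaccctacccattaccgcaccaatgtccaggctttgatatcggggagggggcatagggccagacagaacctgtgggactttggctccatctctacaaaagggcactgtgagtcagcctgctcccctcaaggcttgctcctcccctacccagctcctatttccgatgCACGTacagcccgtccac
Car6: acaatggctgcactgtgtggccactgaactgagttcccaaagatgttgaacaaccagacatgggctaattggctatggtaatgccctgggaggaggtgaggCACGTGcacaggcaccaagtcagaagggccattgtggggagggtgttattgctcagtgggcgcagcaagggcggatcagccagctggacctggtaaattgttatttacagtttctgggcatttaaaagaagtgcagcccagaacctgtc

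In Car9 the core ACGTG lay on the strand opposite to the gene, starting 18 bases before the RefSeq start site. In Car6 it was read on both strands, at 149 and 148 bases before the RefSeq start site, because the letters there form an overlapping palindrome. GENCODE, which gives the gene bounds below, places the outermost start farther upstream, by 60 bases in Car9 and 197 in Car6, so by its bounds these matches lie inside the genes. ACGTG was in 16.6% and GCGTG in 28.2% of all 32851 promoter windows of this length, and 38.6% held at least 1 of them. Car5b, which had GCGTG at 5 places, and Car11, with GCGTG at 1, were the other members with a match, and the windows of Car4 and Car12 had none. These matches describe letters and not binding, and no binding was measured here.

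Car9, the membrane enzyme of hypoxic cells, was by far the most abundant member. It lies on chromosome 4 from 43506966 to 43513729 (GRCm38, plus strand). It had 2313 and 1813 counts in the cKO libraries, against 1963 counts in the control, or 185.5 and 141.5 CPM against 158.0 CPM. The control thus lay between the cKO libraries, and the log2 fold change was 0.05 ± 0.15 (SE; edgeR adjusted p = 0.932). Car9 supplied 77.1% and 71.6% of the members' counts in cKO and 73.4% in the control. The antisense gene Gm12454 overlaps 9.3% of the exon bases of Car9, and the use of strand in the counting is not given in the sources used here, so reads from that stretch cannot be assigned.

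Levels of different genes were compared per kb of exon, as CPM divided by the length of all annotated exons. On that scale Car9 had 80.5 and 61.4 CPM per kb in cKO and 68.6 in the control. Car13 followed with 10.2 and 10.3 CPM per kb in cKO and 6.44 in the control. Neither range overlapped the next one down, which was that of the mitochondrial Car5b, at 2.65 and 2.62 CPM per kb in cKO and 3.32 in the control.

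Below these, the order depended on the genotype label. Car3 had 1.04 and 0.953 CPM per kb in cKO and 3.54 in the control. Car12, the other membrane enzyme, had 1.25 and 1.49 in cKO and 1.20 in the control. Car11 had 1.04 and 0.851 in cKO and 0.920 in the control. In cKO, Car3 (0.994 ± 0.058, SD, n = 2) and Car11 (0.946 ± 0.134) differed by less than the spread of the libraries. In the control, Car3 had a counting interval of 2.95 to 4.22 CPM per kb (exact 95% Poisson), which overlapped that of Car5b at 2.93 to 3.75. Such intervals cover counting error only.

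**Figure D1:**
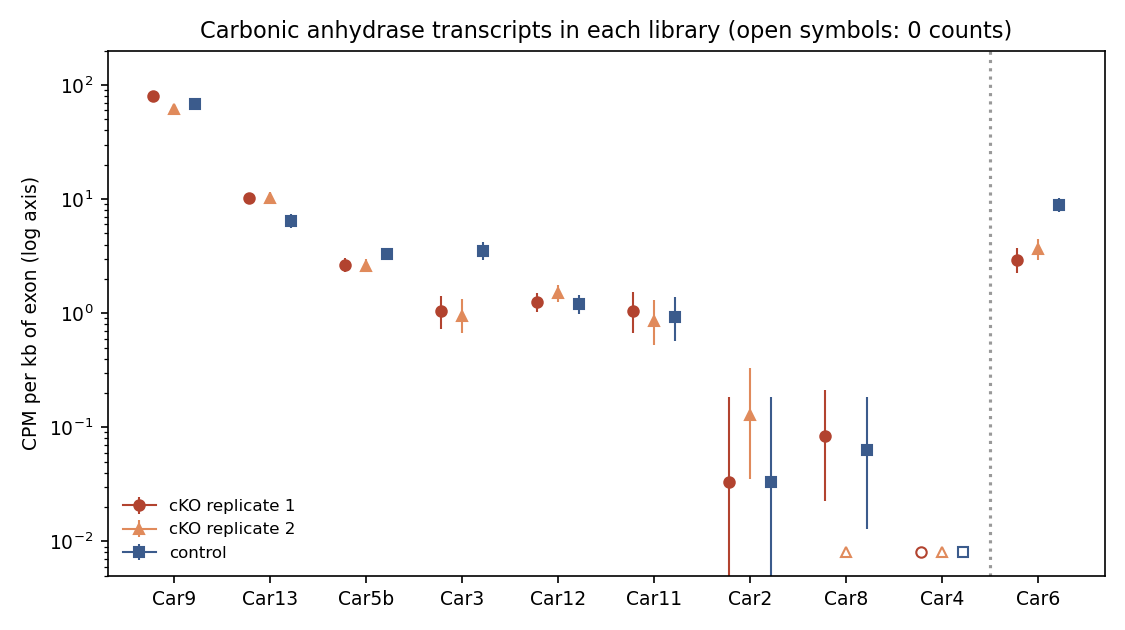
CPM per kb of exon on a log axis for the 9 carbonic anhydrases and, right of the dotted line, Car6; circles and triangles are cKO replicates 1 and 2 and squares the control, bars are exact 95% Poisson intervals, and open symbols at the bottom mark 0 counts. Car9 lies at or above 61.4 in each library, and Car3 and Car6 are the genes whose cKO points lie far below the control.

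Car3 had the largest log2 fold change of the 7 family genes tested. The gene encodes a cytosolic enzyme of low activity that is abundant in skeletal muscle and fat, and it lies on chromosome 3 from 14863512 to 14872523 (GRCm38, plus strand). It had 37 and 35 counts in cKO against 126 in the control, or 2.97 and 2.73 CPM against 10.1 CPM. Both cKO libraries were thus far below the control and close to each other. The log2 fold change was -1.83 ± 0.31 (SE), a level 3.55-fold lower in cKO. Its transcripts share no stretch of 50 bases with transcripts of another annotated gene.

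By edgeR at an adjusted p under 0.05, 1.90% of the 15529 genes tested were called lower and 3.01% higher. Of the 9 carbonic anhydrases, 6 were tested, of which 1 was called lower (Car3) and 0 were called higher. Since the drop of Car3 was known when the list was made, this count describes the list and nothing is read from it. DESeq2 called 0 members in either direction and 0.586% of all genes lower. Of the members, Car13 alone was higher at an unadjusted p under 0.05 in edgeR. Of the 15529 genes tested, 2431 had such a p in either direction. By limma-voom 0 members were called higher. The median log2 fold change was 0.04 over the 6 members tested and -0.0023 over all genes tested. Both cKO libraries lay below the control for 2 of the 6 and above it for 2, against 37.4% and 36.6% of all genes tested.

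Car13, the other cytosolic enzyme with clear counts, was above the control in cKO. It lies on chromosome 3 from 14641727 to 14663002 (GRCm38, plus strand). It had 292 and 302 counts in cKO against 184 in the control, or 23.4 and 23.6 CPM against 14.8 CPM. Both cKO libraries were above the control, and the 2 cKO values were almost equal. The log2 fold change of 0.66 ± 0.20 (SE, a 1.59-fold higher level) had an edgeR adjusted p of 0.0591 and so did not pass over all genes. Across the alternatives the adjusted p ranged between 0.0611 and 0.719, and the log2 fold change between 0.66 and 0.68.

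**Figure D2:**
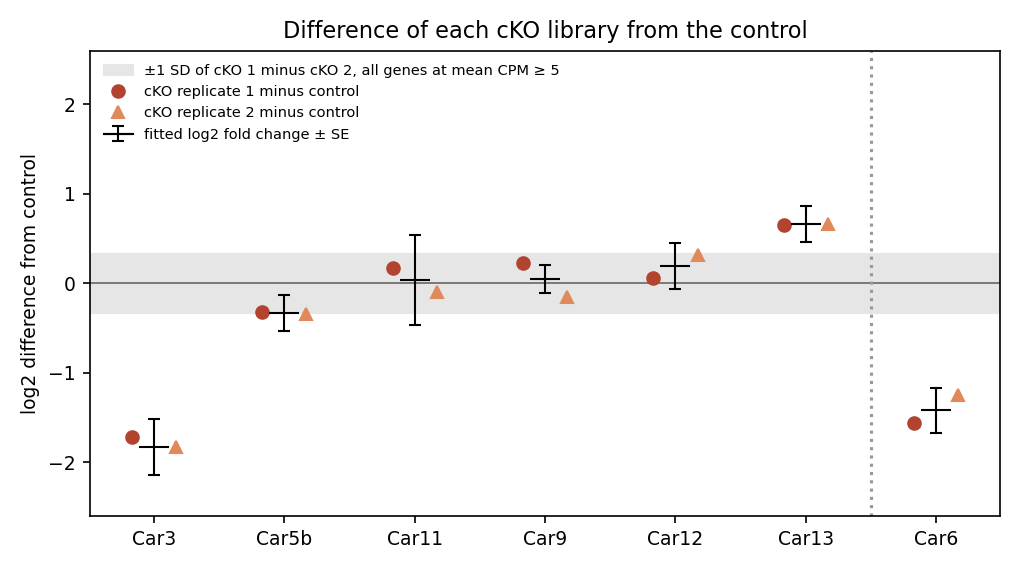
Log2 difference from the control for the 6 members that passed the filter on low counts and, right of the dotted line, Car6; circles and triangles are cKO replicates 1 and 2, black bars the fitted log2 fold change ± SE, and the grey band is ±0.331, the SD of the difference between the cKO libraries over all genes at a mean of at least 5 CPM. Car3 and Car6 lie below the band and Car13 above it in both cKO libraries, and Car5b lies at its lower edge.

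Car13, Car1, Car3 and Car2 are neighbours in a stretch of 259.0 kb on chromosome 3. Car1, a red cell isoform, had 0 counts in each library. There were 7.89 and 8.63 Car13 counts per Car3 count in cKO, against 1.46 in the control. In both cKO libraries Car13 thus stood above the control and Car3 below it. Car13 did not pass in edgeR, and the drop of Car3 was known when the list was made. Their starts lie 221.8 kb apart, with Car1 between them. Car2, the highly active cytosolic form best known from red cells, kidney and osteoclasts, starts 22.8 kb from the start of Car3 and had only 1 and 4 counts in cKO, against 1 in the control. Its ratio of counts was 2.46, with an exact 95% binomial interval of 0.275 to 116, so no difference was detectable at this depth.

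**Figure D3:**
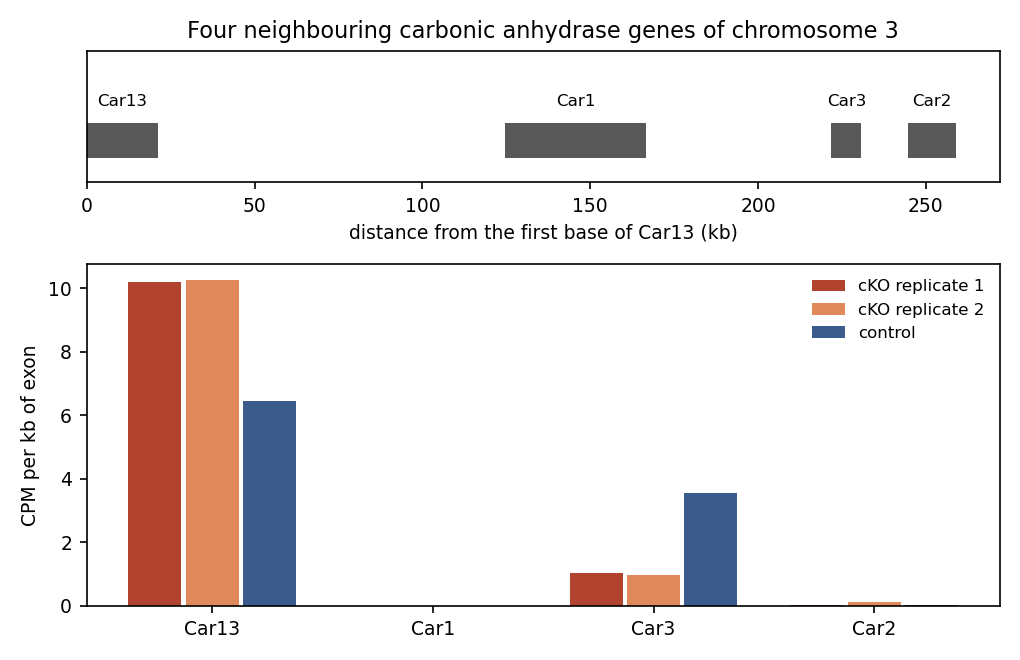
The upper panel shows the position of Car13, Car1, Car3 and Car2 by distance in kb from the first base of Car13, and the lower panel their CPM per kb of exon in cKO replicate 1, cKO replicate 2 and the control. Car13 is higher and Car3 lower in both cKO libraries than in the control, and Car1 has no counts.

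Car5b, the mitochondrial member on chromosome X (163976822 to 164027997, GRCm38, minus strand), had 210 and 213 counts in cKO, against 262 in the control. Both cKO libraries were below the control, with 16.8 and 16.6 CPM against 21.1 CPM. The log2 fold change of -0.33 ± 0.20 (SE) did not pass (edgeR adjusted p = 0.458). The cKO libraries differed by 0.02 on the log2 scale in Car5b, while Xist, also on chromosome X, had 2 and 10081 counts in them. The part of that difference in the level of Car5b was not tested. Transcripts of other genes share 5.0% of its 50-base stretches.

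Car12, which like Car9 faces the outside of the cell, had 118 and 145 counts in cKO, against 113 in the control. On the CPM scale it stood at 9.46 and 11.3 in cKO and 9.10 in the control, and its log2 fold change was 0.19 ± 0.26 (SE; edgeR adjusted p = 0.805). The gap between the cKO libraries, 0.25 on the log2 scale, was larger than this difference. Car11, one of the members without enzyme activity, had 25 and 21 counts in cKO, against 22 in the control, with a log2 fold change of 0.04 ± 0.50 (SE; edgeR adjusted p = 0.987). The control lay between the cKO libraries, and with so few counts only a large difference could have shown.

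Car8 and Car4 were at the limit of detection. Car8, known from the brain as a partner of an inositol trisphosphate receptor, had 4 and 0 counts in cKO, against 3 in the control, a ratio of 0.655 with an exact 95% binomial interval of 0.111 to 4.47. Car4, the lipid-anchored form, had 0 counts in each of the 3 libraries, which allows up to 0.241 and 0.234 CPM in cKO, against 0.242 CPM in the control (3 counts in each library). Summed over the 9 members, the level was 240.6 and 197.7 CPM in cKO, against 215.3 CPM in the control. Without Car9 it was 55.1 and 56.2 CPM in cKO, against 57.2 CPM in the control. With Car9 the control lay between the cKO libraries, and without it both cKO libraries were slightly below the control. The sum without Car9 still holds Car3, at 2.97 and 2.73 CPM in cKO, against 10.1 CPM in the control. That gap is wider than the gap of the sum. The drop of Car3 was known when the list was made, so nothing is read from the direction of the sum.

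Among the 7 family symbols outside the list, Car6, which encodes the secreted form known from saliva, was lower in cKO. It lies on chromosome 4 from 150187015 to 150201332 (GRCm38, minus strand). It had 66 and 85 counts in cKO against 199 in the control, or 5.29 and 6.63 CPM against 16.0 CPM. Both cKO libraries were well below the control. Its log2 fold change was -1.42 ± 0.26 (SE), a level 2.68-fold lower in cKO (edgeR adjusted p = 0.000926). DESeq2 gave an adjusted p of 0.0799, and over all alternatives the adjusted p ranged between 0.000393 and 0.529. The remaining symbols were scarce. Car15 had 9 and 7 counts in cKO, against 6 in the control, with 65.7% of its exon bases shared with another annotated gene. Car7 had 2 and 2 counts in cKO, against 3 in the control, Car5a had 1 and 0 in cKO and 0 in the control, and Car1, Car10 and Car14 had none.

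The genes whose difference from the control was most like that of Car3 were sought among 10093 genes, those at a mean of at least 5 CPM without pseudogenes, provisional symbols and Xist. Likeness was the Euclidean distance between pairs of log2 differences from the 1 control, so it rests on 3 libraries. Closest was Ucma, a secreted cartilage protein gene, at a distance of 0.063, with log2 differences of -1.77 and -1.80 for cKO replicates 1 and 2. The next were Fgfr3, a growth factor receptor gene of growth plate cartilage (0.163), Dlg2, a scaffold protein gene (0.211), Extl1, a gene of the exostosin family (0.237), and Scin, an actin-severing protein gene (0.258). Car6 was at 0.601 and ranked 16 in this list.

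Chondrocyte markers were lower along with Car3 and Car6. Of the 9 markers, 8 fell and 0 rose in edgeR, with a median log2 fold change of -1.25. By edgeR 1.90% of all genes tested were called lower. The marker that did not pass was Col2a1 (edgeR adjusted p = 0.283), which DESeq2 and limma-voom did call. DESeq2 did not call Sox9 (DESeq2 adjusted p = 0.0567) or Snorc, listed as 3110079O15Rik (DESeq2 adjusted p = 0.0756). Acan, the main proteoglycan gene of cartilage, named as an example after its values were seen, fell by 1.34 ± 0.17 on the log2 scale (SE). In bulk RNA, fewer cells of a type and less RNA per cell cannot be told apart. Car3 is also a gene of fat and muscle. Of 9 adipocyte markers, 7 had a count and Cidec and Pck1 had none, and their summed level was 41.1 and 28.1 CPM in cKO, against 23.0 CPM in the control. Most of that sum was Plin4, a lipid droplet gene, with 37.2 and 25.4 CPM in cKO, against 21.2 CPM in the control. Of 9 skeletal muscle markers, 7 had a count and Ckm and Myh4 had none, and their summed level was 5.61 and 6.87 CPM in cKO, against 7.49 CPM in the control. Most of that sum was Acta1, an actin gene, with 4.33 and 5.15 CPM in cKO, against 4.67 CPM in the control. Of the 2 adipocyte and 3 muscle markers tested, 0 were called in edgeR, DESeq2 or limma-voom. Their median log2 fold changes were 0.633 for the adipocyte and -0.695 for the muscle markers. By edgeR 1 adipocyte and 0 muscle markers had an unadjusted p under 0.05, as had 2431 of all 15529 genes tested. The part of these markers in the level of Car3 was not tested.

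Other marker lists were mostly near the floor. Red blood cell markers summed to 0.080 and 0.078 CPM in cKO, against 0 CPM in the control, with all the globin genes of the list at 0. Endothelial markers summed to 4.97 and 5.23 CPM in cKO, against 2.33 CPM in the control, with 4 of 9 at 0 in every library, Cdh5 among them. Macrophage and leukocyte markers summed to 12.6 and 13.0 CPM in cKO, against 7.81 CPM in the control, with 2 of 8 at 0. In edgeR 0 of the 3 endothelial and 4 macrophage and leukocyte markers tested were called. An unadjusted p under 0.05 was found for 1 endothelial and 2 macrophage and leukocyte markers, each higher in cKO. Of all 15529 genes tested, 2431 had such a p in either direction. Nerve and glia markers summed to 12.8 and 12.4 CPM in cKO, against 16.5 CPM in the control, and osteoblast markers to 19.7 and 22.1 CPM in cKO, against 34.7 CPM in the control. From each of these last lists 1 gene fell in edgeR, where 1.90% of all genes tested were called lower. The genes that fell were Syt1 and Ibsp, and none rose. DESeq2 called neither, with adjusted p-values of 0.179 for Syt1 and 0.649 for Ibsp. Both are named after their values were seen. The part of these markers in the values of the family was not tested.

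Genes that act with carbonic anhydrases in moving acid and bicarbonate mostly did not pass. Of 9 tested bicarbonate transporters, 1 fell and 0 rose in edgeR. Over all genes tested edgeR called 1.90% lower and 3.01% higher. The median log2 fold change was -0.01 in these 9, against -0.0023 for all genes. The gene that fell was Slc26a7, a chloride-bicarbonate exchanger, with 22 and 14 counts in cKO, against 61 in the control (log2 fold change -1.78 ± 0.43 SE, edgeR adjusted p = 0.0137). DESeq2 did not call it, with an adjusted p of 0.618, and limma-voom did. It is named after its values were seen, because its mean was below 5 CPM. Slc4a2, an anion exchanger and the gene of the list with the highest mean CPM, is also named after its values were seen, with 2736 and 2236 counts in cKO, against 1939 in the control. Its log2 fold change of 0.34 ± 0.15 (SE) did not pass (edgeR adjusted p = 0.269). Of the 9 transporters, 3 had an unadjusted p under 0.05 in edgeR, against 2431 of all 15529 genes tested. These were Slc26a7, lower in cKO, and Slc4a2 and Slc4a11, higher in cKO. Slc4a11 too is named after its values were seen. Of 6 sodium-proton exchangers and 5 monocarboxylate transporters and chaperones, 0 were called in edgeR, DESeq2 or limma-voom. In edgeR 1 gene of each list had an unadjusted p under 0.05, as had 2431 of all 15529 genes tested.

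Among 20 tested subunits of the vacuolar proton pump, which acidifies organelles and the space under osteoclasts, 1 rose and 0 fell in edgeR. Over all genes tested edgeR called 3.01% higher and 1.90% lower. The median log2 fold change was -0.05 in the 20 subunits, against -0.0023 over all genes tested. The one that rose was Tcirg1, the a3 subunit gene best known from osteoclasts, at 59.1 and 62.5 CPM in cKO, against 23.7 CPM in the control. Its log2 fold change was 1.36 ± 0.16 (SE, edgeR adjusted p = 5.26e-06), and DESeq2 called it too. Of the 20 subunits, 2 had an unadjusted p under 0.05 in edgeR, each higher in cKO. Of all 15529 genes tested, 2431 had such a p in either direction. Markers of osteoclasts summed to 89.0 and 86.7 CPM in cKO, against 86.9 CPM in the control. Most of that sum was Ctsk, a protease gene, with 83.5 and 81.2 CPM in cKO, against 82.0 CPM in the control. Of the 9 osteoclast markers, 5 had a count, and Calcr, Ocstamp, Dcstamp and Atp6v0d2 were at 0 in every library. Acp5 had 46 and 54 counts in cKO, against 49 in the control, and Tnfrsf11a 11 and 11, against 8. Oscar had 3 and 2 counts in cKO, against 4 in the control, and Mmp9 9 and 3, against 1. By edgeR, DESeq2 and limma-voom 0 of the 3 osteoclast markers tested were called. By edgeR 0 of them had an unadjusted p under 0.05.

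Hypoxia response genes were looked at because Car9 and Car12 belong to that response. Of 29 tested, 1 rose and 0 fell in edgeR. Over all genes tested edgeR called 3.01% higher and 1.90% lower. The median log2 fold change was 0.10 in these 29, against -0.0023 over all genes tested. The gene that rose was Bhlhe40, a transcriptional repressor gene, at 109.9 and 93.1 CPM in cKO, against 69.9 CPM in the control (log2 fold change 0.54 ± 0.15 SE, edgeR adjusted p = 0.0373). DESeq2 did not call it, with an adjusted p of 0.368, nor did edgeR with relative log expression size factors, and limma-voom did. An antisense gene overlaps 2.5% of its exon bases. Vegfa and Slc2a1, widely used markers of the response, had log2 fold changes of 0.37 each and did not pass (edgeR adjusted p = 0.163 for Vegfa and 0.154 for Slc2a1). They too are named after their values were seen. Of the 29 hypoxia response genes, 4 had an unadjusted p under 0.05 in edgeR, each higher in cKO. Of all 15529 genes tested, 2431 had such a p in either direction. Of the 3 inositol trisphosphate receptor genes and of Ptprg and Ptprz1, receptor phosphatases with a carbonic anhydrase-like domain, 0 were called and 0 had an unadjusted p under 0.05 in edgeR, and DESeq2 and limma-voom called 0.

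**Figure D4:**
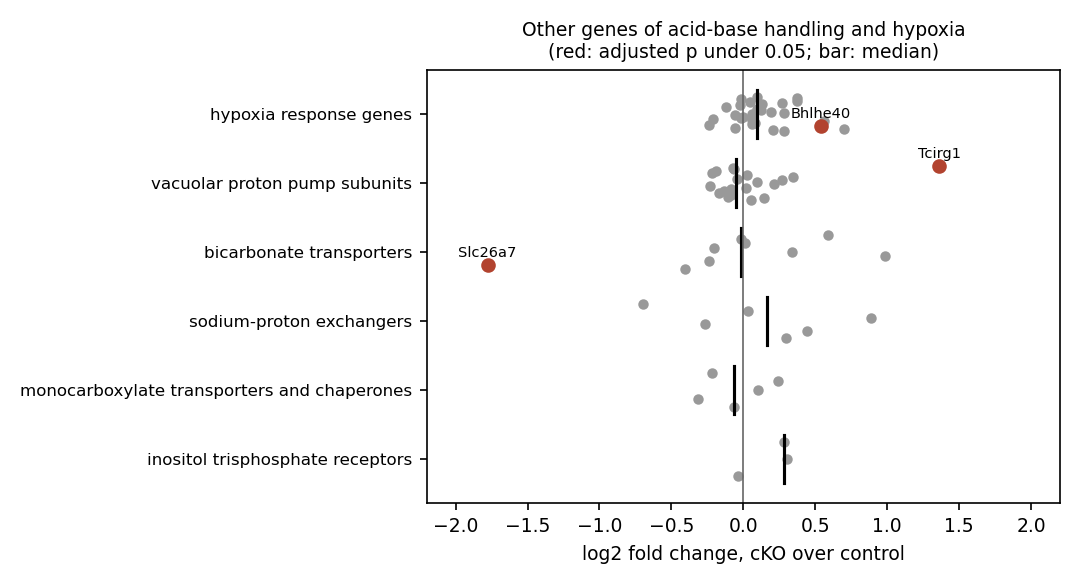
Log2 fold change of cKO over control for each tested gene of 6 lists, with the median of each list as a black bar; red points passed edgeR at an adjusted p under 0.05 and grey points did not. Only Bhlhe40, Tcirg1 and Slc26a7 passed among the genes shown.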

How the data were processed

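The authors deposited raw whole-number counts per gene symbol, 1 column per library. Per the labels' protocols, total RNA was depleted of ribosomal RNA and sequenced on the Ion Proton platform. The submitters' processing notes list GRCm38 and GRCh37 without a role. For the aligner, the counting tool and strand, the sources used here give nothing. Coordinates are from GENCODE M21.

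Counts were compared between 2 cKO libraries and 1 control with edgeR 4.0.16 in R 4.3.3 (filterByExpr, TMM, quasi-likelihood F test, legacy = FALSE) and Benjamini-Hochberg adjustment over all 15529 genes tested. The fit has 1 residual degree of freedom, so the model takes the single control to be as variable as the cKO libraries, p-values measure only the spread between those libraries, and the estimated prior degrees of freedom were 19.9. Each SE was derived from the log2 fold change and its F statistic. CPM values are TMM-scaled. DESeq2 1.42.0 and limma-voom 3.58.1 were alternatives.

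The members and lists were chosen with earlier results of these data known. Named genes were the members, the other family symbols, up to 3 called genes per pathway list at a mean of at least 5 CPM, any gene whose exons overlap a member, and the 5 genes nearest to Car3, leaving out pseudogenes, provisional symbols and Xist. Cell type markers are under no such rule. Older symbols were matched through RefSeq synonyms. The 2 cKO columns differed by more than counting noise (chi-square 9.06 per gene over 16293 genes).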

Additional observations from a re-analysis of the deposited data

How the results depend on the processing

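Direction was kept in all 41 recomputed values of the 6 members tested, under other size factors, filters, tools and prior degrees of freedom. Every setting used the same counts of the same libraries, so the sign had little room to change and nothing is read from this. The number of members called lower, 1 in the fit reported, was 0 without a low-count filter, in DESeq2 and at prior degrees of freedom of 3. The number called higher was 0 under every setting. The estimated prior degrees of freedom were 19.9 in the fit reported and 2.03 without a filter. Over the whole table edgeR called 762 genes in that fit, 320 with library totals only, 290 at a mean of at least 5 CPM and 87 at prior degrees of freedom of 3. Without a filter it called 0, with 1829 genes at an unadjusted p under 0.05. DESeq2 called 310 genes and limma-voom 826. The number of pathway genes called, 3 in the fit reported, was 2 with relative log expression size factors (Slc26a7 and Tcirg1, without Bhlhe40), 1 with library totals only, 0 without a filter, 1 at a mean of at least 5 CPM, 1 in DESeq2 and 0 with prior degrees of freedom of 3, and where it was 1 the gene was Tcirg1. Leaving out 1 cKO library gives values without a test, between -1.84 and -1.72 for Car3 and between 0.65 and 0.66 for Car13, and the sign of 2 members, Car9 and Car11, differed with the library left out. No paired analysis was possible because the control has 1 library. With 1 control library, a difference in that library alone cannot be told apart from an effect of genotype.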
